A study of Mus musculus with 54 samples.

Results

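Interferon-stimulated genes are the genes that cells switch on when an interferon binds its receptor. Here 9 of them were followed among the 54232 genes listed in the count data: Lgals3bp, Irf7, Isg15, Usp18, Ifit1, Ifit3, Oasl2, Rsad2 and Bst2. They were chosen by symbol, starting from Lgals3bp, which stood higher after Cmpd60 in the brains of aged mice, so the values of that brain comparison are given as a description and nothing is read from a test there. All 9 passed the filter on low counts in every comparison.

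The study asked how Cmpd60, a benzamide inhibitor of the histone deacetylases HDAC1 and HDAC2, alters the transcriptome of aged organs and of the brain in an amyloid model. Male BL6 mice, 20 months old, received Cmpd60 at 22.5 mg/kg or vehicle (DMSO, PEG400 and saline) by daily intraperitoneal injection for 14 days. The study's methods name Taconic as their supplier, whereas its list of resources names The Jackson Laboratory. Brain was sequenced from 6 Cmpd60 and 6 vehicle mice, kidney from 6 and 5, and heart from 5 and 6. In another cohort, APPSWE-1349 mice and control littermates, male and on a BL6 background, had the same dose and duration, with 4 Cmpd60 and 6 vehicle brains from APPSWE mice and 5 and 5 from littermates.

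The APPSWE mice carry a transgene for human amyloid precursor protein with the Swedish mutation. The study's methods put them at 6 to 7 months, whereas the GEO labels repeat the 20 months of the aged mice. Each library is 1 tissue of 1 mouse, the spread reported is that between mice, and no young untreated group was analysed here. Vehicle mouse s139 of the APPSWE mice is listed under Cmpd60 in the study's own sample table, and the kidney treatment tags contradict the kidney titles. The titles were followed in both cases. For kidney the source names and the study's sample table match the titles, and under the tags every kidney difference would change sign.

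Type I and type III interferons bind receptors that activate the kinases JAK1 and TYK2. A transcription factor complex that includes STAT2 and IRF9 then binds interferon-stimulated response elements upstream of the responding genes. Irf7 encodes a transcription factor that amplifies interferon production, Isg15 a ubiquitin-like modifier, and Usp18 the protease that removes ISG15 and also damps receptor signalling. Ifit1 encodes a protein that binds foreign RNA, Ifit3 a protein of the same family and Oasl2 an oligoadenylate synthetase-like protein. Rsad2 encodes the antiviral enzyme viperin, and Bst2 tetherin, which holds budding virions at the cell surface. Lgals3bp encodes a secreted glycoprotein that binds galectin-3 and is induced by interferon. In the brain, microglia and endothelial cells are known to express many of these genes.

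The promoter letters of these genes are shown because the response element is what they are known to share. RefSeq promoter windows on GRCm38.p6 were matched for 8 of the 9 genes, all but Usp18. The 10-letter core GAAANNGAAA, sought on both strands in the 250 bases before each start, was present in Isg15, Bst2, Rsad2, Ifit1 and Ifit3 and absent as these letters from Lgals3bp, Irf7 and Oasl2. Of all 32851 windows 2.98% held it. The variant with 1 more spacer base, GAAANNNGAAA, was in Lgals3bp, Rsad2 and Ifit3 and in 2.38% of all windows, whereas the shorter AANNGAAA was in 21.3%. Capitals below mark the matches to GAAANNGAAA and, in Lgals3bp, to the longer variant, written 5′ to 3′ on the strand of the gene. A match on the opposite strand therefore reads TTTCNNTTTC. The Rsad2 match to the longer variant, 109 to 99 bases before the start, is left in lower case. The Ifit3 window lies inside the annotated span of that gene, so its letters are not shown. The windows lie at chr4:156200860-156200911 (minus strand, Isg15), chr8:71537572-71537617 (minus, Bst2), chr12:26456548-26456587 (minus, Rsad2), chr19:34640770-34640828 (plus, Ifit1) and chr11:118401960-118401991 (minus, Lgals3bp).
Isg15: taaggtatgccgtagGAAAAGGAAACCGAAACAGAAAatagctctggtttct
Bst2: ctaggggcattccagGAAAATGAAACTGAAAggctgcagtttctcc
Rsad2: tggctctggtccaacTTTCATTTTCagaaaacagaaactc
Ifit1: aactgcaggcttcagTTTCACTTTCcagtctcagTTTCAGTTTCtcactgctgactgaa
Lgals3bp: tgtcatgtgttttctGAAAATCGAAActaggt
The Isg15 run holds 3 overlapping matches and the Bst2 run 2 overlapping matches, while Ifit1 has 2 separate ones. The Lgals3bp letters are those of the longer spacing and end 7 bases before the start. These matches describe letters and are not measured binding sites.

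The 9 genes lie on 8 chromosomes, with Ifit3 (chr19:34583119-34588982) and Ifit1 (chr19:34640889-34650009) close together on chromosome 19. On the same build Lgals3bp (ENSMUSG00000033880) spans chr11:118392747-118401959, Irf7 (ENSMUSG00000025498) chr7:141263183-141266499, Isg15 (ENSMUSG00000035692) chr4:156199424-156200818 and Usp18 (ENSMUSG00000030107) chr6:121245906-121270917. Oasl2 (ENSMUSG00000029561) spans chr5:114896926-114912245, Rsad2 (ENSMUSG00000020641) chr12:26442743-26456452 and Bst2 (ENSMUSG00000046718) chr8:71534255-71537472. Ifit3 (ENSMUSG00000074896) has a near-identical neighbour, Ifit3b, so reads that match both could be missing from the counts.

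The 54 libraries held 23584609 to 57430113 reads counted to genes, with a median of 28114298. A count of 0 in the smallest library allows up to 0.127 CPM (read counts scaled to a common library size), an allowance that covers counting error only. Summed markers of the labelled tissues were high where they should be: tubule genes at 7427 to 15923 CPM in kidney, cardiomyocyte genes at 49564 to 62995 CPM in heart and neuronal genes at 5541 to 7217 CPM in aged brain. In the APPSWE cohort 6 of 20 libraries had fewer genes detected than the others (15044 to 18122), and the Cmpd60 differences of the 9 genes in that cohort are given with and without them. Detection was uneven between treatments there. The median number of genes detected was 18320 under vehicle and 22604 under Cmpd60 in APPSWE mice, and 19669 and 23014 in littermates. In whole tissue, fewer cells of a type and less RNA per cell cannot be told apart.

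Baseline levels differed strongly between organs. The study's methods give fewer aged mice than aged libraries, so organs of 1 mouse are among them. The labels do not tie libraries to mice, and the contrasts between organs treat the libraries as independent. In vehicle mice all 9 genes were higher in kidney than in brain (log2 difference 0.80 for Ifit1 to 4.06 for Rsad2) and higher in heart than in brain (0.54 for Ifit3 to 3.75 for Rsad2), each with an adjusted p under 0.05 by edgeR's quasi-likelihood test. The backgrounds were high too: 72.5% of genes were called between kidney and brain and 72.1% between heart and brain, with median differences over all genes of -0.24 and -0.44. Rsad2 stood at 54.8 ± 6.86 CPM in vehicle kidney (SD, n = 5), 46.4 ± 12.1 in vehicle heart (n = 6) and 3.62 ± 0.432 in vehicle brain (n = 6), with no overlap between brain and either organ (adjusted p = 9.00e-20 for kidney and 4.44e-19 for heart). The Ifit3 difference of heart over brain depended on scaling, since each tissue scaled on its own gave 13.6 CPM in heart and 14.0 CPM in brain. Between kidney and heart, where 56.7% of genes were called, only Lgals3bp (0.87, adjusted p = 3.70e-05) and Ifit3 (0.91, adjusted p = 4.07e-05) of the 9 were called, both higher in kidney.

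Per kilobase of exon, Lgals3bp was the most abundant of the 9 transcripts in vehicle brain at 8.04 CPM per kb, followed by Ifit3 at 7.44 and Bst2 at 6.89. Rsad2 came last there at 0.836 CPM per kb. In vehicle kidney Lgals3bp led at 30.1 CPM per kb and Rsad2 followed Bst2 and Ifit3 at 12.7, whereas in vehicle heart Bst2 led at 25.3 CPM per kb ahead of Lgals3bp at 17.2. Usp18 was the lowest in kidney at 2.31 CPM per kb and in heart at 2.59.

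Across all 10 groups, scaled together, Lgals3bp ranked by organ and then by cohort. Kidney led with 124 ± 40.7 CPM under Cmpd60 and 85.7 ± 17.1 under vehicle, followed by heart with 80.0 ± 9.42 and 49.0 ± 15.3 and aged brain with 32.8 ± 4.90 and 22.9 ± 1.10. The APPSWE cohort closed the order, with littermates at 18.8 ± 10.1 under vehicle and 16.4 ± 2.52 under Cmpd60, and APPSWE mice at 13.6 ± 3.27 under Cmpd60 and 11.3 ± 1.85 under vehicle. Each group's range overlapped that of its neighbour in this order except for Cmpd60 and vehicle aged brain, the pair from which the gene was picked. In aged vehicle brain the means of the other 8 genes ran from 2.06 CPM for Usp18 to 13.0 CPM for Ifit3. In the APPSWE cohort vehicle means ran from 0.701 CPM (Usp18, littermates) to 8.77 CPM (Ifit3, littermates). Age, cohort and sequencing cannot be told apart between aged and APPSWE-cohort brain, so that step was not tested.

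In aged brain Lgals3bp stood at 27.9 to 40.7 CPM in the 6 Cmpd60 mice (median 33.0) and at 22.6 to 26.0 CPM in the 6 vehicle mice (median 24.7). Every Cmpd60 brain lay above every vehicle brain, and 0.495% of all genes tested were separated in that direction. The log2 difference was 0.48 (SE 0.08, 95% interval 0.31 to 0.64), from means of 34.3 ± 4.82 and 24.6 ± 1.14 CPM. This value chose the gene, and nothing is read from the fact that it is among the 0.0205% of genes with an adjusted p under 0.05 there (0.0423).

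The other 8 genes were also higher on average in the Cmpd60 brains, by 0.16 (Bst2 and Usp18) to 0.37 (Ifit3), and their ranges overlapped those of vehicle. Ifit3, the second largest, ran from 13.8 to 21.8 CPM under Cmpd60 (median 17.8) and from 11.2 to 16.3 CPM under vehicle (median 14.1), with 5 of 6 Cmpd60 brains above all vehicle brains. Irf7, the amplifying transcription factor, had medians of 4.53 and 3.67 CPM and a log2 difference of 0.34. The modifier Isg15 (medians 2.93 and 2.23 CPM) differed by 0.23 and its protease Usp18 (2.48 and 2.20 CPM) by 0.16. Of the effectors, Ifit1 (7.52 and 5.62 CPM) differed by 0.27, Oasl2 (7.89 and 7.28 CPM) by 0.25, Rsad2 (4.40 and 4.04 CPM) by 0.27 and Bst2 (6.67 and 5.15 CPM) by 0.16. The median over the 9 genes was 0.27, against 0.01 over all genes tested. Cmpd60 replicate 36 was the highest brain of its group in 5 of the 9 genes and replicate 37 the lowest in 7.

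Beside these genes the markers of brain cell types were compared. Of 12 microglial markers 2 were higher (median -0.02), with a summed level of 392 to 467 CPM under Cmpd60 and 408 to 466 under vehicle. Endothelial markers were higher in 6 of 7 (median 0.17, 227 to 322 CPM against 200 to 233), and none of either list was called. Their part in the differences above was not tested.

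**Figure D1:**
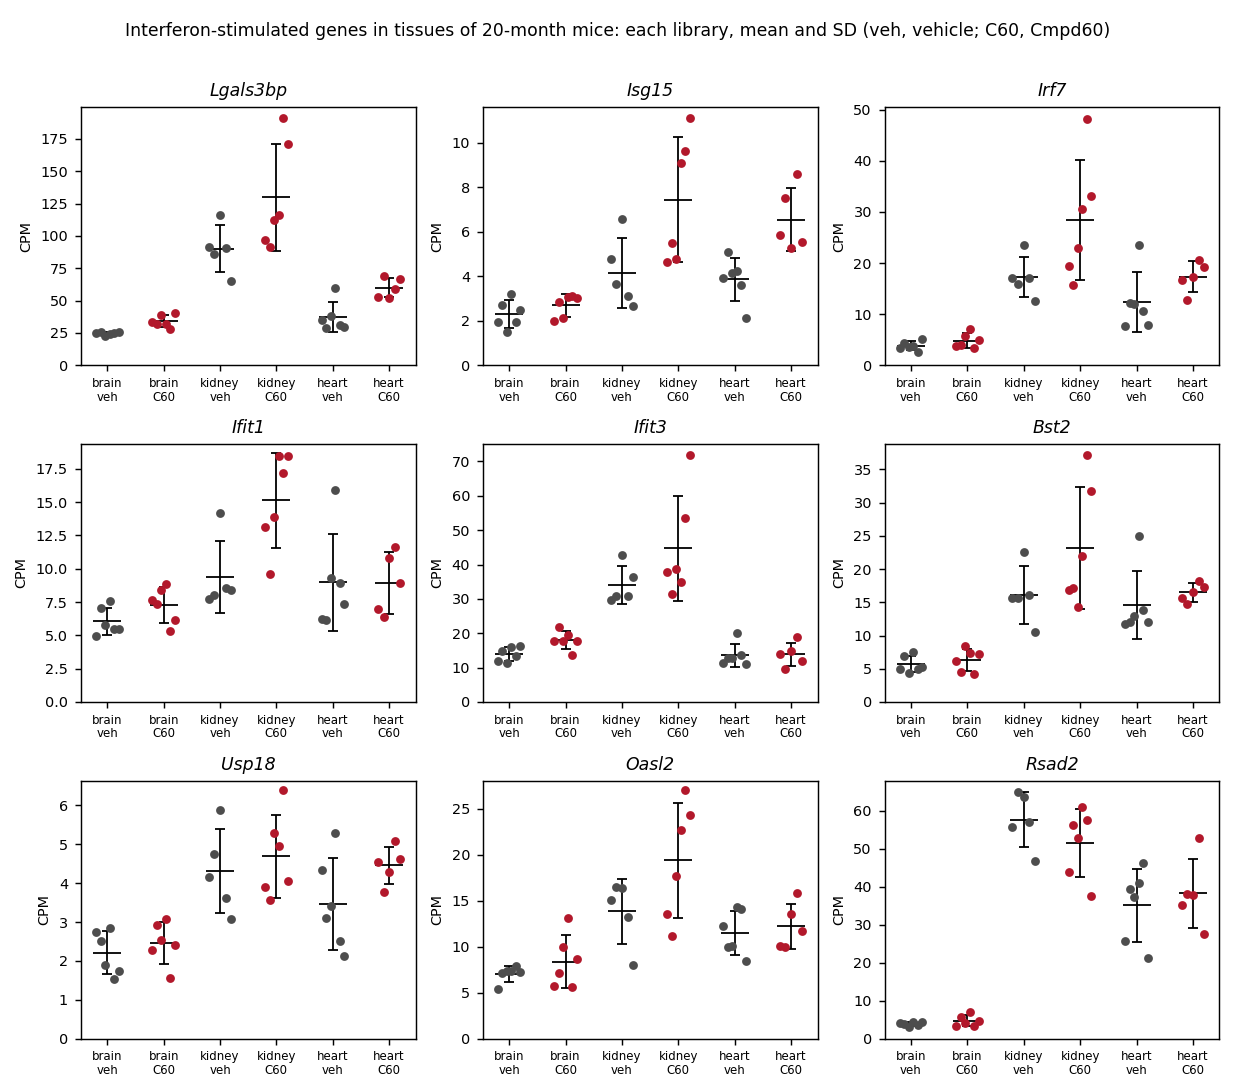
CPM of the 9 interferon-stimulated genes in each aged mouse (points), by tissue and treatment, with bars for the mean ± SD and values scaled within each tissue, so that only groups of the same tissue should be compared. In brain the Lgals3bp points do not overlap (27.9 to 40.7 against 22.6 to 26.0 CPM), while in kidney 2 Cmpd60 mice reach 191 and 171 CPM and the other 4 lie among or just above vehicle.

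In aged kidney 8 of the 9 genes were higher on average after Cmpd60 and none passed edgeR's quasi-likelihood test at an adjusted p of 0.05, where 0.300% of genes did. At an unadjusted p under 0.05 there were 5: Ifit1, Irf7, Isg15, Lgals3bp and Bst2, against 5.71% of all genes in that direction. DESeq2 called 1 of the 9, Ifit1 (0.70, adjusted p = 0.0356), where it called 2.07% of all genes, and limma-voom called 0. The median over the 9 was 0.53 and that over all genes -0.00. No gene had groups free of overlap, where 1.10% of all genes were separated upwards. Kidneys of mice whose brains chose the genes are among these, so the kidney values are not independent of that choice.

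Lgals3bp ran from 91.7 to 191 CPM in the 6 Cmpd60 kidneys (median 114), and the 5 vehicle kidneys stood at 91.8, 86.4, 116, 91.0 and 65.4 CPM. Replicates 54 and 55, at 191 and 171 CPM, stood well above all vehicle mice. Replicate 53 was also above them, but it and vehicle replicate 47 both round to 116 CPM, and the remaining 3 overlapped the vehicle range. The log2 difference was 0.53 (95% interval 0.11 to 0.94, adjusted p = 0.312), from 130 ± 41.0 and 90.1 ± 18.0 CPM.

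Irf7 spanned 15.8 to 48.2 CPM under Cmpd60 (median 26.8) and stood at 17.0, 16.0, 23.6, 17.1 and 12.6 CPM under vehicle. Its difference of 0.72 (0.20 to 1.24, adjusted p = 0.265) again had replicates 54 and 55 at the top. Isg15 spanned 4.63 to 11.1 CPM (median 7.27) against 4.76, 3.64, 6.58, 3.12 and 2.68 CPM. It had the largest difference of the 9, 0.84 (0.23 to 1.45, adjusted p = 0.266), and 3 Cmpd60 kidneys, replicates 53, 54 and 55, lay above every vehicle kidney. The protease gene Usp18 differed by 0.13 (-0.31 to 0.57), at 3.56 to 6.40 CPM against 3.08 to 5.89 CPM.

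Among the effectors, Ifit1 spanned 9.63 to 18.5 CPM (median 15.6) against 7.74, 8.04, 14.2, 8.53 and 8.41 CPM. Vehicle replicate 47 alone reached into the Cmpd60 range. Ifit1 had the lowest p of the 9 (difference 0.69, 0.28 to 1.11, adjusted p = 0.171). Ifit3 differed by 0.39 (-0.01 to 0.80), Oasl2 by 0.49 (-0.00 to 0.98) and Bst2 by 0.53 (0.01 to 1.05, adjusted p = 0.430). Rsad2 was the exception, at 37.7 to 61.1 CPM under Cmpd60 and 46.9 to 64.9 CPM under vehicle, a difference of -0.16 (-0.43 to 0.11, adjusted p = 0.668).

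The same pair of mice, picked because they stood high, was also left out, a choice that by itself lowers a difference. Without Cmpd60 replicates 54 and 55, an alternative chosen after seeing the data, the difference was 0.21 for Lgals3bp, 0.36 for Irf7, 0.53 for Isg15, 0.55 for Ifit1, 0.07 for Ifit3, 0.24 for Oasl2 and 0.13 for Bst2. Macrophage markers summed to 534 CPM in replicate 54 and 331 in replicate 55, against 190 to 231 CPM in the other 4 Cmpd60 kidneys and 194 to 331 CPM under vehicle, with 7 of 8 markers higher under Cmpd60 (median 0.21). Tubule markers were lowest in replicate 55 at 7427 CPM. B cell markers were lower in 5 of 6 (22.6 to 69.6 CPM against 47.2 to 178), and markers of plasmacytoid dendritic cells, an interferon-producing type, were higher in 2 of 4. No macrophage marker was at 0 in any kidney library, and the part these cells had in the result was not tested.

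In aged heart Lgals3bp rose after Cmpd60, the only call among the 9 genes by edgeR's quasi-likelihood test, where 1.18% of all genes were called. Hearts of mice whose brains chose the gene are among these, so the call is not independent of that choice. The 5 Cmpd60 hearts stood at 53.1, 68.9, 52.4, 59.3 and 66.5 CPM, and the 6 vehicle hearts ran from 28.7 to 59.4 CPM with a median of 33.0. Vehicle replicate 65, at 59.4 CPM, overlapped the Cmpd60 group and the other 5 vehicle hearts lay below it. The log2 difference was 0.70 (SE 0.16, 95% interval 0.37 to 1.03, adjusted p = 0.0425), from 60.1 ± 7.54 CPM (n = 5) and 37.0 ± 11.5 CPM (n = 6). The call held when 1 of 3 mice was left out (Cmpd60 replicate 68 or 70, or vehicle replicate 65) and was lost for each of the other 8, with adjusted p from 0.00138 to 0.123 and a difference of 0.64 to 0.88.

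Isg15 was higher in the heart by a similar amount. It stood at 5.87, 7.50, 5.25, 8.57 and 5.53 CPM under Cmpd60 and ran from 2.13 to 5.08 CPM under vehicle (median 4.04). All 5 Cmpd60 hearts were above all 6 vehicle hearts, as 1.45% of genes were in that direction. The difference was 0.77 (0.35 to 1.18) with an adjusted p of 0.0674, which misses the threshold, although DESeq2, which called 3.84% of all genes there, gave 0.00779 and a looser count filter 0.0453. Irf7 stood at 16.7, 12.8, 17.2, 20.7 and 19.3 CPM against 7.72 to 23.6 CPM (median 11.3), a difference of 0.49 (0.01 to 0.97, adjusted p = 0.363). With these, 3 of the 9 genes had an unadjusted p under 0.05, against 7.28% of genes in that direction.

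The remaining heart differences ran from -0.01 to 0.37, and none was called. Usp18 differed by 0.37 (-0.07 to 0.81), Bst2 by 0.17 (-0.18 to 0.53), Rsad2 by 0.12 (-0.26 to 0.51), Oasl2 by 0.09 (-0.24 to 0.41), Ifit3 by 0.03 (-0.33 to 0.38) and Ifit1 by -0.01 (-0.49 to 0.47). The median over the 9 genes was 0.17 and over all genes -0.00. Vehicle replicate 65 was the highest vehicle heart in 7 of the 9 genes. Without it the differences were 0.88 for Lgals3bp (adjusted p = 0.00138), 0.78 for Irf7 (adjusted p = 0.0338), 0.80 for Isg15 (adjusted p = 0.0970) and 0.39 for Bst2 (adjusted p = 0.0578).

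Cell markers of the heart differed on average with treatment, without a call in these 4 lists. Macrophage markers were higher in 8 of 8 (median 0.27, 386 to 469 CPM against 280 to 412) and endothelial markers in 7 of 7 (median 0.17, 1021 to 1357 CPM against 973 to 1096). T cell markers were lower in 7 of 7 (median -0.55, 1.95 to 3.02 CPM against 2.75 to 5.92) and B cell markers in 6 of 6 (median -1.57, 1.12 to 6.09 CPM against 4.88 to 25.1). Their part in the Lgals3bp rise was not tested.

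**Figure D2:**
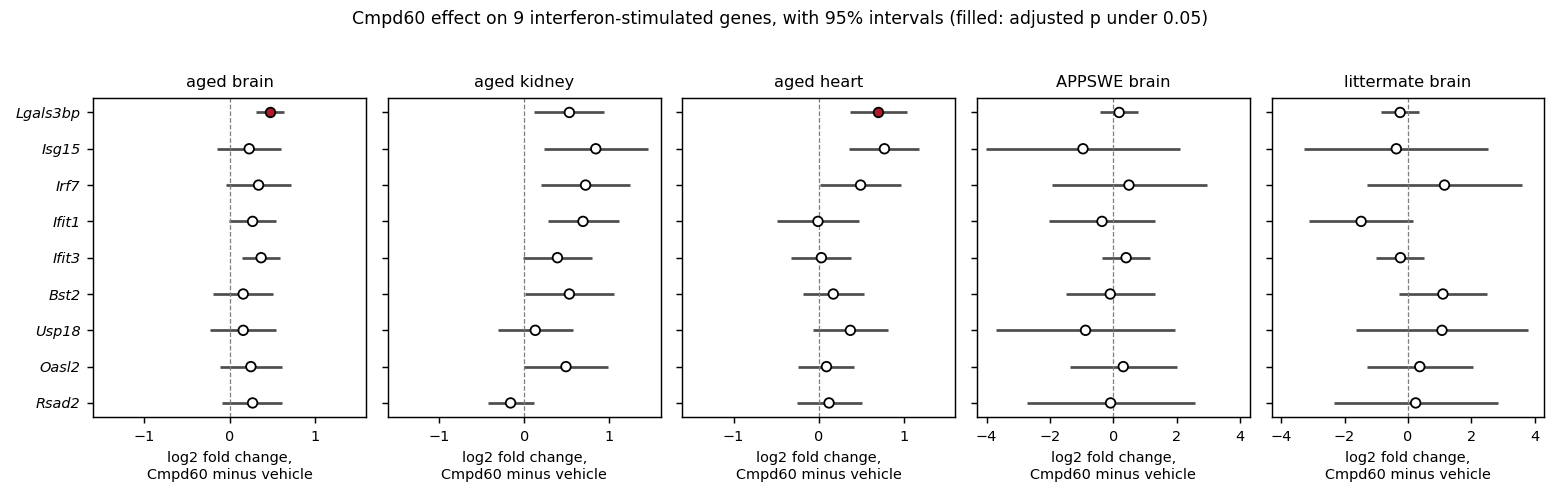
Log2 fold change of Cmpd60 over vehicle (points) with 95% intervals (lines) for the 9 genes in 5 comparisons, where a filled point has an adjusted p under 0.05. Outside the aged brain, whose Lgals3bp value chose the genes, the filled point is Lgals3bp in heart at 0.70. Hearts of mice whose brains chose the genes are among those shown. Intervals in the 2 APPSWE-cohort panels, drawn on a wider axis, reach from -4.01 to 3.77.

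The size of the Cmpd60 difference was also compared between organs. Kidney and heart differed in no gene at an adjusted p under 0.05 by edgeR, DESeq2 or limma-voom, where edgeR called 0.350% of genes. Ifit1 alone had an unadjusted p under 0.05 by edgeR, with a kidney difference larger than that of heart by 0.69 (0.07 to 1.31, adjusted p = 0.360). Of all 27105 genes, 1392 were higher and 1786 lower at that threshold. For Lgals3bp kidney minus heart was -0.18 (-0.67 to 0.31), an interval that leaves room for a sizeable difference either way. Against brain, whose values chose the genes, the kidney effect on Lgals3bp was larger by 0.02 (-0.46 to 0.50) and that of heart by 0.20 (-0.28 to 0.68), and 0.0885% and 0.0517% of genes were called in these contrasts. The contrasts share control samples and are not independent.

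Within each aged organ the 9 genes tended to vary together from mouse to mouse. After group means were removed, the median correlation over the 36 gene pairs was 0.47 across 12 brains, 0.69 across 11 kidneys and 0.58 across 11 hearts. Lgals3bp had a median of 0.80 with the other 8 in kidney and 0.29 in brain. Across the 20 brains of the APPSWE cohort the median was 0.16. The points share a library and its scaling, so these values are a description.

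**Figure D3:**
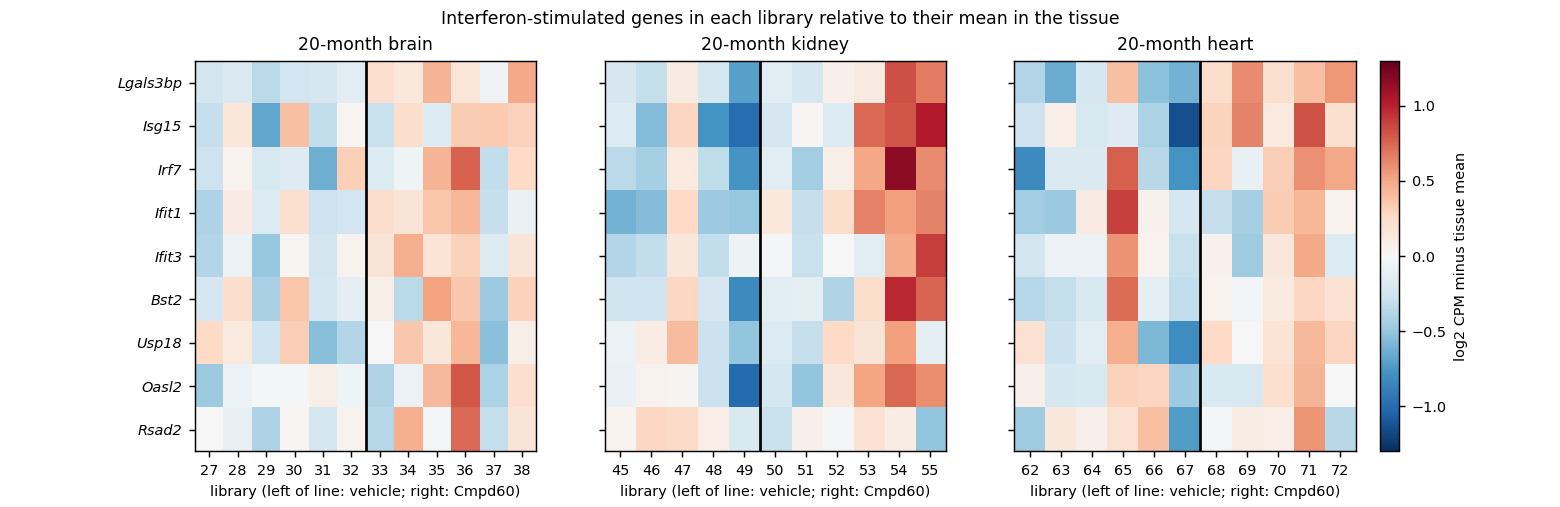
Log2 CPM of each gene in each library minus the gene's mean in that aged tissue, with vehicle mice left of the line and Cmpd60 mice right of it (colour scale in log2 units). Kidney Cmpd60 replicates 54 and 55 and heart vehicle replicate 65 stand high in most of the 9 genes, with 191, 171 and 59.4 CPM of Lgals3bp.

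In APPSWE brain none of the 9 genes was called after Cmpd60 by edgeR's quasi-likelihood test, DESeq2 or limma-voom, and 0 had an unadjusted p under 0.05. Of all genes edgeR called 0%, DESeq2 14 and limma-voom 0. At an unadjusted p under 0.05 by edgeR, 1537 of 23273 genes were higher and 507 lower. Lgals3bp ran from 10.7 to 16.6 CPM in the 6 vehicle brains (median 12.2) and stood at 10.2, 16.0, 15.8 and 16.0 CPM under Cmpd60. Mouse s139, whose label is in conflict, was the highest vehicle brain, and Cmpd60 mouse s141 was below all of them. The difference was 0.18 (-0.41 to 0.78, adjusted p = 0.993). It was 0.32 with mouse s139 counted as Cmpd60 (adjusted p = 0.817), 0.27 without it (adjusted p = 0.920) and 0.37 without the libraries of few detected genes.

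For the rest the intervals were wide. Irf7 was listed at 0 in 2 of 6 vehicle brains and ran up to 3.74 CPM, against 3.08, 1.83, 1.36 and 0.881 CPM under Cmpd60 (0.49, -1.95 to 2.94). Isg15 ranged from 0 to 4.52 CPM against 0, 0.576, 1.28 and 0.771 CPM (-0.96, -4.01 to 2.09). Ifit3 differed by 0.40 (-0.37 to 1.16), Oasl2 by 0.31 (-1.38 to 2.00), Rsad2 by -0.09 (-2.73 to 2.56), Bst2 by -0.10 (-1.50 to 1.31), Ifit1 by -0.36 (-2.03 to 1.31) and Usp18 by -0.88 (-3.69 to 1.93). Every 0 occurred in 1 of the 6 libraries of few detected genes, where it allows up to 0.0537 to 0.119 CPM. Without the 6 libraries, an alternative chosen after seeing the data, the differences were 0.06 for Irf7, -0.27 for Isg15, 0.80 for Ifit3, -0.32 for Ifit1 and -1.05 for Usp18. Those of Oasl2 (-0.47), Rsad2 (0.18) and Bst2 (0.11) then had the other sign, and over the 9 genes the adjusted p ran from 0.407 to 0.989. The intervals with all libraries include differences as large as those in the aged organs, so a difference of that size is not excluded. All 8 macrophage markers were higher on average in these Cmpd60 brains (median 0.44, 88.4 to 114 CPM against 74.2 to 97.8, none called). These marker values include the libraries of few detected genes. Up to 2 of the markers were at 0 in a vehicle brain and 0 in a Cmpd60 brain, and the part of detection was not tested.

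In littermates the outcome was alike in its lack of calls, with 0 of the 9 genes called by any of the 3 tools. By edgeR 0 of them had an unadjusted p under 0.05, where 586 of 23273 genes were higher and 289 lower. Of all genes edgeR called 0% and DESeq2 called 8. Lgals3bp stood at 16.8, 13.9, 22.5, 10.3 and 41.6 CPM under vehicle and at 22.0, 20.5, 15.3, 14.9 and 15.5 CPM under Cmpd60, a difference of -0.25 (-0.84 to 0.33). Vehicle mouse s155 held the 41.6 CPM, and without it the difference was 0.15. Ifit1 stood at 2.65, 0.736, 6.36, 4.42 and 21.3 CPM against 0, 3.25, 3.28, 3.31 and 2.83 CPM, and its -1.48 (-3.13 to 0.17) became -0.48 without mouse s155. Cmpd60 mouse s152 set the values of Bst2 (19.8 CPM there, 2.52 to 4.27 in the other 4), Irf7 (9.13 CPM, 1.36 to 2.04) and Usp18 (4.38 CPM, 0.802 to 1.09). Without it their differences went from 1.10 to 0.05, from 1.15 to 0.27 and from 1.07 to 0.23. Ifit3, Isg15, Oasl2 and Rsad2 differed by -0.24, -0.37, 0.37 and 0.24. Without the 6 libraries of few detected genes the differences were 0.06 for Lgals3bp, -0.16 for Ifit1, -0.32 for Ifit3, -0.38 for Isg15, -0.05 for Irf7 and -0.18 for Bst2. For Usp18, Oasl2 and Rsad2 they were -0.09, -0.06 and 0.24, and the adjusted p was 0.999 for each of the 9. Mice s152 and s155 had the fewest detected genes of the cohort, 15084 and 15044.

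Between the genotypes Lgals3bp was lower on average in APPSWE than in littermate vehicle brain, by -0.72 (-1.28 to -0.16, adjusted p = 0.471), where 0.00859% of all genes were called. The difference was -0.32 without littermate s155 and -0.38 without the 6 libraries. Under Cmpd60, where 0% of genes were called, Bst2 differed by -1.72 (unadjusted p = 0.0281 in the edgeR fit over all genes, not called) by -0.67 without mouse s152 and by -0.51 without the 6 libraries. The difference of the Cmpd60 effect between genotypes, again with 0% of genes called, was 0.44 for Lgals3bp (-0.40 to 1.27) and 0.31 without the 6 libraries. By edgeR 0 of the 9 had an unadjusted p under 0.05, where 762 of 23273 genes were higher and 354 lower. Both genotype comparisons and the difference between them use the samples of the Cmpd60 comparisons above.

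**Figure D4:**
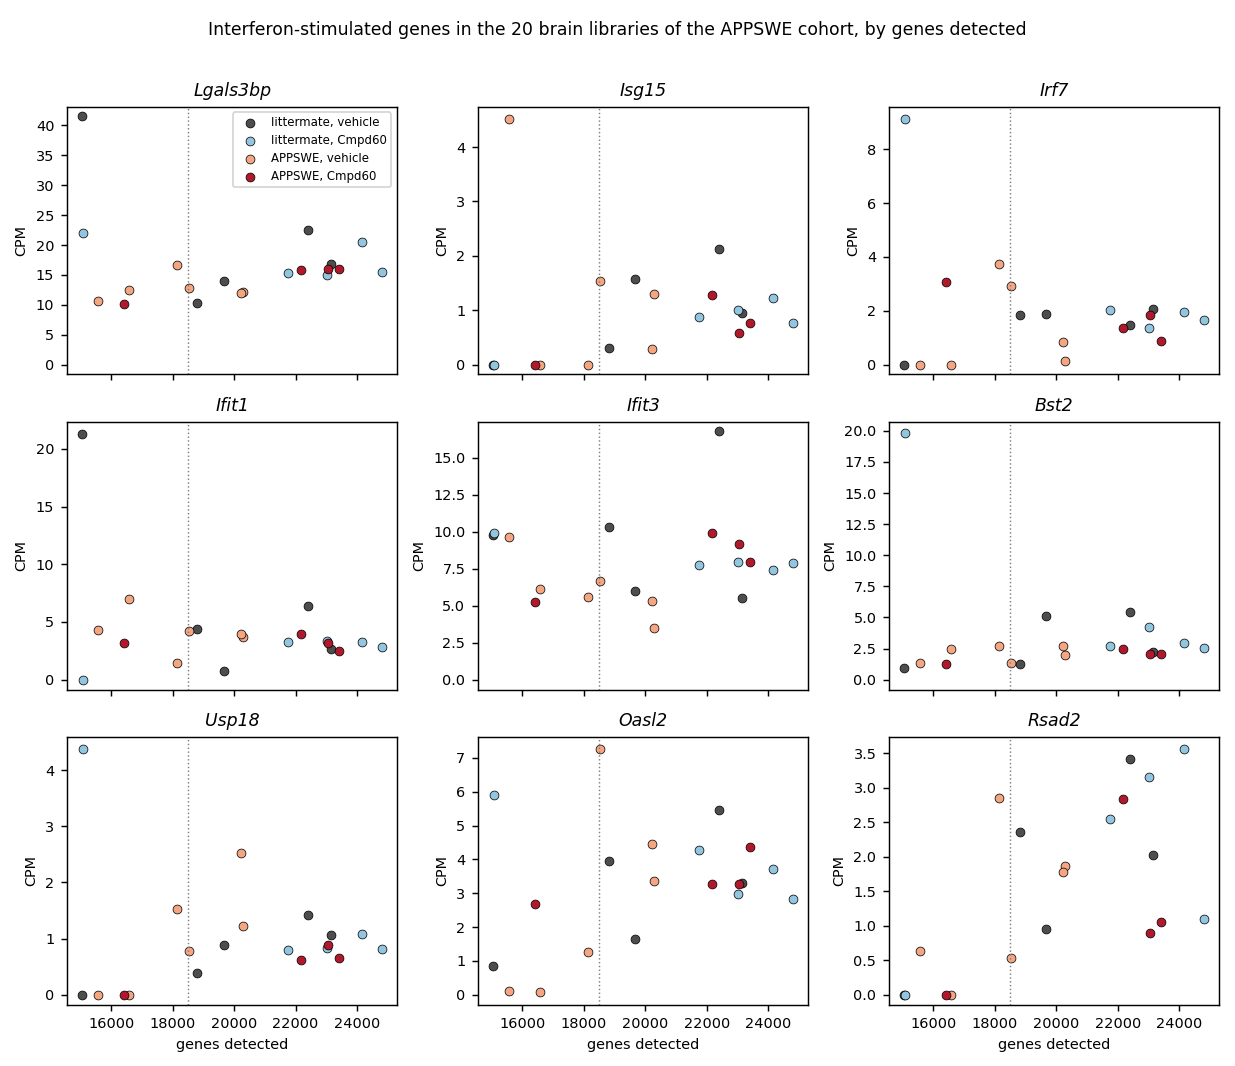
CPM of the 9 genes in the 20 brains of the APPSWE cohort against the number of genes detected, by genotype and treatment, with a dotted line that separates the 6 libraries of few detected genes. Values of 0 and the isolated high values (41.6 CPM for Lgals3bp, 21.3 for Ifit1, 19.8 for Bst2) lie to the left of the line.

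The wider interferon pathway gave few calls. Of the ligands, 9 were matched, 5 had no read in any of the 54 libraries, and the highest counts were 9 reads for Ifnb1, 5 for Ifnl2, 3 for Ifng and 1 for Ifna2. Ligand transcripts were therefore at or near the limit of detection in these bulk tissues. Ifng, encoding the type II interferon, passed the filter in kidney alone (-0.26).

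Among 6 receptor genes none was called in the 3 aged organs by edgeR. Ifnar1, which encodes a chain of the type I receptor, differed by -0.01 in brain, -0.00 in kidney and 0.01 in heart. All 6 were higher on average in heart (median 0.08). Ifnar2, the other chain, differed there by 0.22 (0.05 to 0.39, adjusted p = 0.217) and Ifnlr1, of the type III receptor, by 0.62 (0.26 to 0.97, adjusted p = 0.0878). In brain 2 of 6 were higher (median -0.01) and in kidney 5 of 6 (median 0.14).

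None of 11 signalling genes was called in an aged organ. On average 9 were higher in brain (median 0.07), 7 in kidney (median 0.09) and 6 in heart (median 0.01). Jak2, which encodes a kinase of the interferon-gamma receptor and of many cytokine receptors, differed by -0.27 in kidney (-0.46 to -0.08, adjusted p = 0.254). All 6 Cmpd60 kidneys (45.2 ± 5.28 CPM) lay below all 5 vehicle kidneys (54.4 ± 2.00 CPM), a separation that 1.20% of all genes showed. Stat2, whose protein is part of the complex named above, differed by 0.05 in brain, 0.20 in kidney and 0.04 in heart, and Irf9, of the same complex, by 0.21, 0.13 and 0.01. Of the 10 sensors and adaptors of foreign nucleic acid, 8 were higher in brain, 7 in kidney and 8 in heart (medians 0.12, 0.04 and 0.23), again with 0 called. The adaptor gene Myd88 differed by 0.22, 0.29 and 0.24, and Mavs, the adaptor of the RNA sensors, by -0.02, 0.30 and 0.18. Of 7 inhibitors Socs3, a suppressor of JAK signalling that many cytokines induce, rose in heart. Its mean was 12.2 ± 3.44 CPM under Cmpd60 (n = 5) and 6.57 ± 1.02 CPM under vehicle (n = 6), with all 5 above all 6 vehicle hearts (0.90, SE 0.16, adjusted p = 0.0161). Of all genes tested in heart, 1.45% were separated in that direction and 1.18% were called. Socs3 differed by 0.46 in kidney (adjusted p = 0.689) and by 0.23 in brain.

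A further 55 interferon-stimulated genes were matched, and 53 were tested in each aged organ. On average 39 were higher in brain (median 0.11), 42 in kidney (median 0.22) and 38 in heart (median 0.11), and edgeR called 0 in each. At an unadjusted p under 0.05, 8 were higher and 1 lower in kidney, where 5.71% of all genes were higher and 5.63% lower, and 7 were higher and 1 lower in heart, where the shares were 7.28% and 6.22%. DESeq2 called 2 of them in kidney and 1 in heart, against 2.07% and 3.84% of all genes. The 2 in kidney were Oas1c, of the oligoadenylate synthetases that sense double-stranded RNA (0.92, adjusted p = 0.108 by edgeR, 0.00545 by DESeq2), and its relative Oas2 (1.36, 0.187 and 0.0217), which is outside the naming rule and was added after its values were seen. Oas1c had 5 of 6 Cmpd60 kidneys above all vehicle (vehicle mean 4.21 ± 0.983 CPM), and unlike the 9 genes it was called by edgeR without replicates 54 and 55 (1.06, adjusted p = 0.0413). Ifit3b, the neighbour of Ifit3, differed in kidney by 0.59 (adjusted p = 0.187). In the APPSWE cohort 30 of 52 were higher in APPSWE mice (median 0.12) and 30 of 52 in littermates (median 0.08), with 0 called by edgeR, DESeq2 or limma-voom. Cxcl10, an interferon-induced chemokine, had 0 reads in all 6 APPSWE vehicle brains and 0 to 7 reads in the 4 Cmpd60 brains, 1 of them at 0, so no fold is given. In aged brain the genes of these lists with the lowest p were Psmb10 (-0.34), Lgals9 (0.29), Il10rb (0.35) and Rnf213 (0.23), given as a description.

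Genes of the interferon-gamma class, which serve antigen presentation and intracellular defence, were mostly lower on average in heart, without a call. There 22 of 24 were lower (median -0.30) and 2 higher, with 1 lower at an unadjusted p under 0.05, as 6.22% of all genes were. Of the markers given above, those of T cells and B cells were lower in the same hearts (medians -0.55 and -1.57). Macrophage and endothelial markers were higher (medians 0.27 and 0.17). The part of these cells in the differences was not tested. The gene with the low p was Psmb10, an immunoproteasome subunit, at 20.3 ± 2.25 CPM against 30.4 ± 7.92 CPM (-0.58, adjusted p = 0.0674). In kidney 11 of 24 were higher (median -0.07) and in brain 13 of 22 (median 0.01). Psmb10 differed by -0.34 in aged brain, 0.08 in kidney and -0.18 in littermates, and by -0.70 in APPSWE brain (16.5 ± 2.63 against 26.8 ± 3.99 CPM, 4 of 4 below all vehicle as for 0.417% of all genes, adjusted p = 0.407). In littermates Tap2, a peptide transporter, differed by -0.60 (not called), and Ciita, the master regulator of MHC class II, had 0 reads in all 5 vehicle brains and 0 to 8 under Cmpd60.

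**Figure D5:**
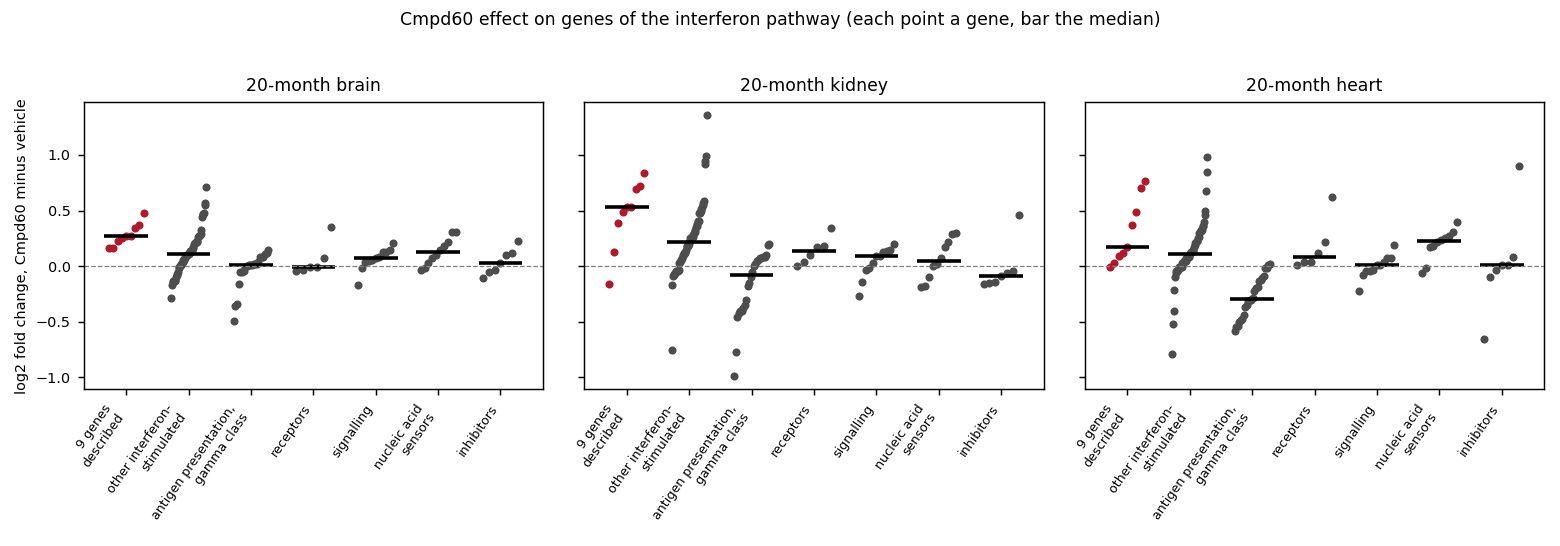
Log2 fold change of Cmpd60 over vehicle for each gene (points) of the 9 and of 6 interferon pathway lists in the 3 aged tissues, with a bar at each median. The 9 genes have medians of 0.27 in brain, 0.53 in kidney and 0.17 in heart, and the interferon-gamma class lies mostly below 0 in heart (median -0.30).

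Genes whose pattern was most like these were ranked by the correlation of log2 CPM deviations from group means over the 54 libraries, among the 11597 genes (11592 for the other 8) with a mean of at least 1 CPM in every group. For Lgals3bp they were Irf1 (0.71), Cd53 (0.69), Ctss (0.67), Gdpd5 (0.65) and Tap1 (0.64). For the mean of the other 8 they were Trim12a (0.76), Gm15417 (0.75), Ccdc88b (0.75), Gm6548 (0.74) and Myom1 (0.74). In the 34 aged libraries alone, an alternative chosen after seeing the data, the genes most like Lgals3bp were Bst2 (0.83), Ctss (0.82), C1qc (0.80), Mpeg1 (0.80) and Fyb (0.79), and Gbp3, H2-D1, Gbp2 and H2-K1 (0.85 to 0.86) were among those most like the other 8. The lists therefore changed with the libraries used, and the libraries share depth and tissue makeup.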

How the data were processed

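The authors homogenised whole tissue, isolated mRNA with oligo-dT beads and made strand-specific libraries (NEBNext Ultra II Directional). The submitters' processing notes name FastQC, Trimmomatic 0.32, HISAT2 2.1.0 and HTSeq 0.11.0, and the genome build is not given in the sources used here. The deposited values are raw read counts per Ensembl gene and library. The 5 summary lines of each file (15.4 to 22.1% of its reads) were left out.

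Names came from the gene ID through RefSeq tables (32651 genes named, 2615 with an updated symbol). Groups and mouse numbers follow the sample titles, and a minimum of 18500 detected genes, set after seeing the data, marked the APPSWE-cohort libraries left out as an alternative. Genes exceeding 2 counts in 3 or more libraries were tested with edgeR 4.0.16 in R 4.3.3 (TMM scaling, quasi-likelihood test, Benjamini-Hochberg adjustment over all genes tested, threshold 0.05). Each aged tissue had its own fit, the APPSWE cohort a fit of its 4 groups, and tissue contrasts a fit of the 34 aged libraries, treated as independent although organs of 1 mouse, which the labels do not identify, are among them. Intervals are at 95%, log2 CPM used a prior count of 2, and a count of 0 was taken to allow 3 counts. DESeq2 1.42.0, limma-voom (limma 3.58.1), other scalings, other count filters and left-out libraries were alternatives. The scripts were tested on simulated data.

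The 9 genes and all lists were chosen with earlier results of these data known. Other genes were named if called in a Cmpd60 comparison of their list, or as the 2 with the smallest p where none was (in aged brain, 4). The 5 genes most like Lgals3bp, and most like the other 8, were named by correlation. Ifnar1, Ifnar2, Ifnlr1, Stat2, Irf9, Jak2, Myd88, Mavs and Oas2, and Psmb10 and Socs3 in further tissues, were named outside this rule, after their values were seen. Helz2, Psmb9, Ifna1, Ifna5 and Ifnz matched no ID. 1 gene of these lists is not reported here by name.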

Additional observations from a re-analysis of the deposited data

Results flagged for a closer look

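In 17 of 90 combinations of gene and group a single mouse stood apart from its group, by a gap to its nearest neighbour that exceeded Dixon's limit for the group size. Chance gives about 1 in 20 such groups, and genes of 1 library are not independent. Heart vehicle replicate 65 was high in Lgals3bp (59.4 CPM), Ifit1 (15.9 CPM), Ifit3 (20.1 CPM), Irf7 (23.6 CPM) and Bst2 (25.0 CPM). Littermate Cmpd60 mouse s152 was high in Ifit3 (9.93 CPM), Irf7 (9.13 CPM), Bst2 (19.8 CPM) and Usp18 (4.38 CPM) and had 0 CPM of Ifit1. Littermate vehicle mouse s155 was high in Ifit1 (21.3 CPM) and had 0 CPM of Irf7. Among APPSWE mice, vehicle mouse s139 was high in Lgals3bp (16.6 CPM), vehicle mouse s140 high in Isg15 (4.52 CPM) and Cmpd60 mouse s141 low in Lgals3bp (10.2 CPM). In kidney, vehicle replicate 47 was high in Ifit1 (14.2 CPM), and in aged brain vehicle replicate 27 was low in Oasl2 (5.38 CPM).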

How the results depend on the processing

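Apart from Ifit3 in heart against brain, called higher by 0.54 and at 13.6 against 14.0 CPM with scaling within each tissue, no alternative reversed the direction of a called result. The aged brain values chose the genes, so the counts of calls there are a description and nothing is read from them. In aged brain edgeR called 1 of the 9 genes. DESeq2, which called 429 of 24438 genes there, called 2 (Lgals3bp, adjusted p = 7.92e-05, and Ifit3, 0.0491). It was 0 by limma-voom (Lgals3bp, 0.0743), 0 by edgeR with a filter of at least 10 counts (0.0534) and 0 to 1 with 1 mouse left out. There Lgals3bp (0.42 to 0.53) stayed below the threshold only without Cmpd60 replicate 36 or 37 or vehicle replicate 29. In kidney DESeq2 called 1 of the 9 and 2 of the other interferon-stimulated genes, and without replicates 54 and 55 edgeR called 1 of these others. Leaving out 1 kidney kept both counts at 0. In heart 1 was called, against 2 by DESeq2 or with at least 1 count (Isg15 added) and 0 to 2 with 1 mouse left out, the 2 being Lgals3bp and Irf7 without vehicle replicate 65. Among the other interferon-stimulated genes of heart DESeq2 called 1, Lgals9 (0.30, adjusted p = 0.0120), and leaving out 1 mouse gave 0 to 1. In brain leaving out 1 gave 0 to 1 (Rnf213). With scaling within each tissue 8 of 9 genes, not 9, were higher in heart than in brain. Kidney against heart gave 2 to 3 with 1 mouse left out.

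Counts over all genes moved more: for brain 5 by edgeR, 429 by DESeq2, 2 by limma-voom, 102 with at least 1 count and 1 to 372 with 1 mouse left out. Kidney had 62, 429 by DESeq2, 94 with at least 1 count, 80 more than 62 without replicates 54 and 55 and 20 to 131 with 1 left out. Heart had 229, 746 by DESeq2 and 36 to 247 with 1 left out. DESeq2 called 14 in APPSWE brain, 8 in littermates and 28 between vehicle genotypes, where edgeR called 0, 0 and 2. The cause was not tested. No paired analysis was possible because the groups compared share no replicate numbers in the labels. Counts of 0 for Ifit1, Isg15, Irf7, Usp18 and Rsad2 occurred in the APPSWE-cohort libraries of few detected genes. The deepest library of the cohort, mouse s140 with 55871402 reads, had 0 of Irf7 and Usp18.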
